A study of Mus musculus with 3 samples.

Results

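Chemokines and chemokine receptors were followed through single-cell libraries of the mouse cauda epididymis and testis. Members were all gene symbols of the deposited tables that start with Ccl, Cxcl, Ccr or Cxcr and a digit, together with Cx3cl1, Cx3cr1, Xcl1, Xcr1 and Ackr1 to Ackr4. This gave 62 symbols (68 gene IDs) of the 26124 genes counted, namely 39 ligands, 19 signalling receptors and 4 atypical receptors. The measurement was the number of UMIs (unique molecular identifiers, 1 per captured transcript molecule) from the 3′ ends of transcripts. Since each molecule counts once, levels are given as CPM, a gene's UMIs divided by all UMIs of the library or cell class and multiplied by 1000000, without scaling to transcript length.

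There were 3 libraries, 1 in each group, so no test between groups was possible and all intervals are 95% intervals that cover counting error only. For the KO testis library, testicular cells were taken from an adult Tsc22d3 knockout (line goGermline). For the KO cauda library, epididymal cells of a goGermline Tsc22d3 knockout were drawn by needle aspiration of the cauda epididymis, the storage end of the sperm duct. The chimera cauda library was aspirated in the same way from a chimera, a Tsc22d3 knockout host that had received mouse iPS cells (induced pluripotent stem cells, line Pax7-nGFP iPS x goGermline), and was labelled as spermatids and spermatozoa. All groups therefore carry the Tsc22d3 knockout in the host, no wild-type animal was among them, and the labels give neither how many animals stand behind a library nor the position of the deletion. Tsc22d3 itself, which encodes a glucocorticoid-induced leucine zipper protein, stood at 6.05 CPM (KO testis), 10.8 CPM (KO cauda) and 22.8 CPM (chimera). Whether its 3′ end lies inside the deletion was not analysed here, so these levels check no label.

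Chemokines are small secreted or membrane-tethered proteins that draw leukocytes along gradients by binding G protein-coupled receptors. CC and CXC chemokines are named after the spacing of their first cysteines, and many receptors accept several ligands of 1 class. Atypical receptors bind chemokines without G protein signalling and clear them from the tissue. In the normal testis, resident macrophages lie between the tubules and on the tubule wall, and in body cavities large macrophages live beside B-1 lymphocytes.

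Sender and receiver classes were formed from raw UMIs of marker genes that are no members, and a class name stands for barcodes that met that gate. Of 13662 kept KO testis barcodes, 12093 fell in exactly 1 class, as did 3268 of 3525 in the KO cauda and 157 of 184 in the chimera cauda. The main testis classes were 4029 Leydig, 2909 fibroblast, 2188 macrophage, 1864 myoid or smooth muscle and 665 Sertoli barcodes, beside 154 pericyte, 122 blood endothelium and 81 germ cell barcodes. The KO cauda held 1893 B lymphocyte, 1044 macrophage, 162 epididymal epithelium and 108 T or NK lymphocyte barcodes. A further 50 had high MHC class II levels and met no gate, with Mgl2, Ccr2 and Mrc1 leading their genes. The 7 macrophage markers, which set the gate, summed to 16289 CPM in KO testis and 9650 CPM in KO cauda macrophages, and to 44.1 CPM in Leydig barcodes and 66.6 CPM in cauda B lymphocytes. Median depths were 5544 UMIs per testis macrophage and 17155 per cauda macrophage. Top and next classes are given over classes of at least 50 barcodes, and 2 small testis classes (20 T or NK lymphocyte barcodes and 17 with high MHC class II levels outside every gate) are described apart.

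The chimera cauda went against its label in part, since 68 of its 184 kept barcodes gated as macrophages and 50 as B lymphocytes, beside 28 spermatid barcodes. The cauda libraries also shared barcodes, which bears on every statement about the chimera. Of 222 chimera barcodes with at least 500 UMIs, 125 were also in the KO cauda matrix, and 121 of these had more UMIs in the chimera (median 21005) than in the KO cauda (median 3684). The overlap took in 63 of 68 chimera macrophages and 49 of 50 chimera B lymphocytes, but 2 of 28 chimera spermatids. Of 119 barcodes kept in both libraries, 114 had the same class in each. At any depth, 3936 of the 3937 KO cauda barcodes had at least 1 UMI in the chimera matrix. Barcodes of the KO cauda matrix carried 58.8% of the chimera UMIs, while the 125 shared barcodes carried 1.80% of the KO cauda UMIs. Leaving out the shared barcodes changed the 51 member levels of at least 20 CPM in KO cauda classes by ratios between 0.956 and 1.24. The KO testis shared 8 kept barcodes with the KO cauda and 0 with the chimera. The chimera cauda is therefore described last and only briefly.

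Across whole libraries, 56 of 62 members had at least 1 UMI, of which 23 reached 5 CPM in the chimera cauda, 22 in the KO cauda and 23 in the KO testis. Cxcr1, Ccl20, Ccl21b, Ccl21c, Ccl26 and Ccl27b had 0 UMIs in every library, which allows up to 0.0223 CPM in the KO testis (3 UMIs of the total). Ccl21a, Ccl21b and Ccl21c are near-identical copies, as are Ccl27a and Ccl27b, so reads could be split or lost among them and their levels are uncertain. A total of 34 members are described by name under the rule for naming, and the other 22 detected members stayed at or below 4.64 CPM (KO testis), 1.74 CPM (KO cauda) and 4.08 CPM (chimera). Ccl2, the founding monocyte attractant, stood at 148 CPM in the KO testis and at 2.05 and 2.04 CPM in the KO and chimera cauda. Ccl6, a rodent ligand of Ccr1, stood at 48.7, 509 and 615 CPM in the same order. The first was thus high only in the testis library, and the second was high in both cauda libraries. Tissue and library cannot be told apart in these values, and in a library sum fewer cells of a type cannot be told apart from less RNA per cell.

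In the KO testis, macrophages held more ligand UMIs than any other class. They made up 16.0% of kept barcodes and held 55.0% of all ligand UMIs, against 18.6% in Leydig barcodes, which were 29.5% of the barcodes. Of 28 ligands with a top class among those of at least 50 barcodes, 14 were highest in macrophages, 5 in fibroblasts and 9 in other classes. The top level overlapped that of the next class within counting error for 9 of the 28. In a small class 8 of the 28 had a higher level than in that top class. These were Cxcl10, Ccl4 and Ccl5 in T or NK lymphocyte barcodes. The others were Cxcl2, Cxcl9, Cxcl16, Ccl9 and Ccl17 in the 17 MHC class II-high barcodes. The whole interval lay above the top level for 7 of the 8, but not for Cxcl9, which rested on 3 UMIs in 1 barcode. Cxcl10 rested on 16 UMIs in 4 barcodes. Summed over ligands, the level was 14737 CPM in the 20 T or NK lymphocyte barcodes and 7503 CPM in macrophages. Of the 1301 ligand UMIs in those 20 barcodes, 1 barcode alone held 218 of Ccl1 and 186 of Xcl1. The CPM of 12 ligands reached 50 in macrophages.

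Of the monocyte attractants that act through Ccr2, 4 reached that level. Ccl2 stood at 1274 CPM (1254 to 1294) in testis macrophages, and Sertoli barcodes came next with 36.9 CPM (32.9 to 41.2). Ccl8 was at 923 CPM (906 to 940), Ccl7 at 489 CPM (477 to 502) and Ccl12 at 460 CPM (449 to 472). Between 83.9% and 87.7% of the kept UMIs of these 4 genes lay in macrophage barcodes. The genes lie together on chromosome 11 of GRCm38, from 82035571, where Ccl2 starts, to 82116799, where Ccl8 ends.

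Ccl12 and Ccl8 are neighbours whose starts lie 13.3 kb apart, and both had a TATA-type stretch close to the start. Their upstream bases are shown because both genes were high in testis macrophages and nearly absent from cauda macrophages. They are taken from the RefSeq promoter table of GRCm38.p6, in which 46 of the 62 members were found. Both run 5′ to 3′ on the plus strand up to the base before the GENCODE M21 start, with TATAAA in capitals, at chr11:82101765-82101844 for Ccl12 and chr11:82115105-82115184 for Ccl8.
Ccl12: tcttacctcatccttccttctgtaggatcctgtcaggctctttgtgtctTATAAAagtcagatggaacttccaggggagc
Ccl8: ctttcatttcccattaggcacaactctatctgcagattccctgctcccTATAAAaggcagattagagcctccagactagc
The motif begins 31 bases before the start in Ccl12 and 32 bases before it in Ccl8. Searched on both strands in the 250 bases before a start, TATAAA occurred in 12.4% of the table's 32851 promoters and in 15 of the 46 members.

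The ligands of Ccr1 lay among them. Ccl3 stood at 1093 CPM (1075 to 1112) in testis macrophages and Ccl4 at 814 CPM (799 to 830). The highest level of Ccl3 in the other testis classes of at least 50 barcodes was 7.72 CPM, in myoid or smooth muscle, and that of Ccl4 was 4.83 CPM, in Leydig barcodes. The 20 T or NK lymphocyte barcodes had 544 CPM of Ccl3 (401 to 721) and 3013 CPM of Ccl4 (2662 to 3398), so Ccl4 was higher there than in macrophages. Ccl6 was at 427 CPM (415 to 438) and Ccl9, which like Ccl6 is a rodent ligand of Ccr1, at 105 CPM (99.6 to 111). Ccl24, an eosinophil attractant that acts through Ccr3, reached 1185 CPM (1166 to 1204). Its receptor Ccr3 had 26 UMIs in the whole library. In the order of the testis macrophage ligands (Ccl2, Ccl24, Ccl3, Ccl8, Ccl4, Ccl7, Ccl12, Cxcl2, Ccl6, Cxcl16, Ccl9, Cxcl1), Cxcl2 and Ccl6 were the neighbours that did not differ beyond counting error.

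The CXC ligands were spread over more classes. Cxcl2, a neutrophil attractant that acts through Cxcr2, was a macrophage gene, with 429 CPM (418 to 441) against 10.5 CPM (8.42 to 12.9) in Sertoli barcodes, where 72 of 90 UMIs were in 1 barcode. Its neighbour Cxcl1, which acts through the same receptor, was highest in fibroblasts at 475 CPM (463 to 488), followed by Leydig barcodes at 250 CPM (246 to 254). Leydig barcodes held 59.0% of the kept Cxcl1 UMIs. Cxcl1 was at 54.2 CPM in macrophages and did not fall below 21.6 CPM in any testis class of at least 50 barcodes. The germ cell value rested on 34 UMIs, 17 of them in 1 barcode.

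The starts of Cxcl1 and Cxcl2 lie 12.6 kb apart on chromosome 5, and their upstream bases are shown because the pair had similar motifs and different sender classes. Cxcl10 is added as a ligand of another receptor that holds a related motif. The capitals mark GGAATTTCC and ATAAAA in Cxcl1 (chr5:90891135-90891240, plus strand) and in Cxcl2 (chr5:90903789-90903870, plus strand). In Cxcl10 (chr5:92348890-92349109, minus strand) they mark GAAANNGAA and the reverse complement of GGAATTTCC.
Cxcl1: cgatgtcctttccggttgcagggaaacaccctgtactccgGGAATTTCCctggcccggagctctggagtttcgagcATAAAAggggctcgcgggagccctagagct
Cxcl2: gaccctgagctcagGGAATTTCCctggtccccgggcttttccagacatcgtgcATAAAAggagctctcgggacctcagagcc
Cxcl10: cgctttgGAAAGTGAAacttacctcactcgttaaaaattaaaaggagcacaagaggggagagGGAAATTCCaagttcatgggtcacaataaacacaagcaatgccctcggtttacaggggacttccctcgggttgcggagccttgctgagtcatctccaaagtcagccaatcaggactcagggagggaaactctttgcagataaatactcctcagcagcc
GGAATTTCC is a letter form of the kappa B element, and it began 66 bases before the start of Cxcl1, 68 before that of Cxcl2 and, on the other strand, 158 before that of Cxcl10. On both strands of the 250 bases before each start it occurred in 94 of 32851 promoters (0.286%), and the members holding it were Cxcl1, Cxcl2, Cxcl3, Cxcl10 and Ccr3. ATAAAA, which overlaps TATAAA in Ccl12 and Ccl8, occurred in 17.0% of the promoters and in 18 members. GAAANNGAA, letters within interferon response elements, occurred in 7.13% and in 8 members. These matches describe letters and are no evidence of binding.

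Cxcl12, which holds stem cells and lymphocytes in their niches through Cxcr4, had its highest testis levels in blood endothelium and fibroblasts. It stood at 726 CPM (681 to 774) in blood endothelium and 481 CPM (468 to 494) in fibroblasts. The few endothelial barcodes held only 4.84% of its kept UMIs. Leydig barcodes, the class with the most barcodes, had 159 CPM, myoid or smooth muscle 143 CPM and pericytes 93.6 CPM. Macrophages had 18.7 CPM and Sertoli barcodes 11.9 CPM, so the range over classes was wide. Cxcl14, a ligand with a broad tissue distribution, was a fibroblast gene, with 144 CPM (137 to 151) against 5.09 CPM in germ cell barcodes, the next class. Cxcl16, a membrane-bound ligand of Cxcr6, did not differ between macrophages (176 CPM, 169 to 183) and fibroblasts (175 CPM, 168 to 183) within counting error, and was at 136 CPM in pericytes and 120 CPM in myoid or smooth muscle.

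Cx3cl1, the membrane-tethered ligand of Cx3cr1, was highest in myoid or smooth muscle barcodes at 71.9 CPM (66.2 to 78.0), followed by blood endothelium at 40.3 CPM (30.2 to 52.7) and fibroblasts at 15.6 CPM. Cxcl10, an interferon-induced ligand of Cxcr3, was at 69.6 CPM (64.9 to 74.5) in fibroblasts and 57.7 CPM (45.5 to 72.2) in blood endothelium, which overlapped. Ccl25, the ligand of Ccr9, was low, between 7.64 CPM in macrophages and 26.1 CPM (18.7 to 35.4) in germ cell barcodes. Sertoli barcodes came next with 14.0 CPM (11.6 to 16.7), which did not overlap the germ cell level.

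**Figure D1:**
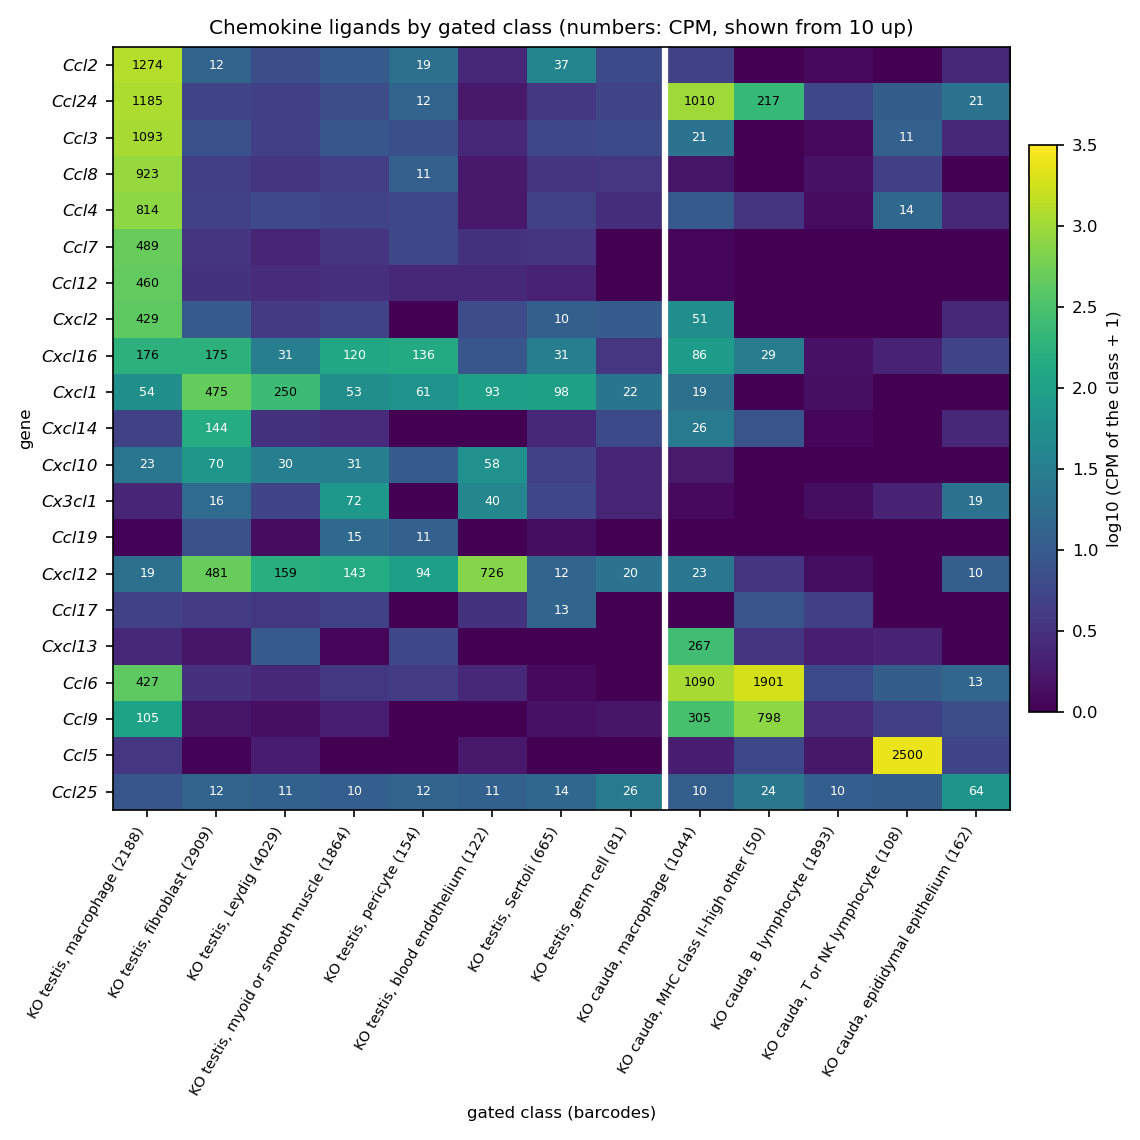
Levels of the chemokine ligands that reach 10 CPM in a class, with genes as rows and gated classes as columns (barcodes in brackets, KO testis left of the white line and KO cauda right of it). Colour is log10 (CPM + 1) and the printed numbers are CPM from 10 up; the macrophage ligands fill the first testis column, while Cxcl1, Cxcl12 and Cxcl16 extend over the stromal classes.

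Some ligands outside the naming rule were carried by a few testis barcodes, and they are given because their values stood out after they were seen. The 20 T or NK lymphocyte barcodes had 4169 CPM of Xcl1, the attractant of Xcr1-bearing dendritic cells. Per barcode, Xcl1 ranged from 0 to 186 UMIs with a median of 1.5, so the class level rested on a minority of barcodes. Ccl5, which attracts T cells, ranged from 0 to 52 UMIs with a median of 11 and was found in 13 of the 20. Ccl4 was found in 9 of the 20, with 98 of its 266 UMIs in 1 barcode. Ccl1, the ligand of Ccr8, had 268 UMIs in the library, and 218 of them were in 1 barcode, the same that held 186 UMIs of Xcl1. Another 17 testis barcodes with high MHC class II levels outside every gate carried Ccl17 at 1746 CPM and Ccl22 at 449 CPM, both ligands of Ccr4. The receptor Ccr7, which guides dendritic cells to lymph nodes, was at 419 CPM there. In this class 28 of the 45 Ccl22 UMIs and 28 of the 42 Ccr7 UMIs came from 1 barcode each.

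In the KO cauda most ligand UMIs lay in macrophages, but not every ligand was highest there. Of 19 ligands with a top class, 11 were highest in macrophages and 3 in the 50 MHC class II-high barcodes. Another 3, among them Ccl5, were highest in T or NK lymphocytes, and 2 in epididymal epithelium. The top level overlapped that of the next class within counting error for 6 of the 19. Macrophages were 29.6% of kept barcodes and held 90.1% of ligand UMIs, while B lymphocytes were 53.7% of the barcodes and held 0.919%. Ccl6 stood at 1090 CPM (1075 to 1105) in macrophages and Ccl24 at 1010 CPM (996 to 1025). Ccl9 was at 305 CPM (297 to 313), Cxcl13, the B cell attractant of follicles and body cavities, at 267 CPM (260 to 275), and Cxcl16 at 86.1 CPM. Of the 1044 macrophages, 1025 met the gate for the large peritoneal type, whose markers include Gata6, and the levels in those 1025 were 1057 CPM for Ccl6 and 269 CPM for Cxcl13.

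The 50 barcodes with high MHC class II levels outside the gates exceeded the macrophages for Ccl6 and Ccl9. They had 1901 CPM of Ccl6 (1771 to 2038) and 798 CPM of Ccl9 (714 to 888), but 217 CPM of Ccl24 (174 to 267). Ccl5 was at 2500 CPM (2394 to 2610) in T or NK lymphocytes, where 26.9% of barcodes held a UMI, and at 0.663 CPM in B lymphocytes. Ccl25 was at 64.0 CPM (46.3 to 86.2) in epididymal epithelium and 10.2 CPM in B lymphocytes. Cx3cl1 was also highest in the epithelium, at 19.3 CPM (10.3 to 33.1).

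In the KO testis, macrophages held 83.3% of all receptor UMIs, and 19539 of their 26525 receptor UMIs were of Cx3cr1. Of 12 receptors with a top class among those of at least 50 barcodes, 8 were highest in macrophages. Among the 8 were Ccr3 and Ccr9, with 16 and 4 macrophage UMIs. The top level overlapped that of the next class within counting error for 5 of the 12. In a small class 5 of the 12 had a higher level than in that top class, for 4 of them with the whole interval above it. Cx3cr1, the fractalkine receptor and a marker of tissue macrophages, stood at 1556 CPM (1534 to 1578) in macrophages. The next class, pericytes, had 9.36 CPM. Ccr1, a receptor of inflammatory CC ligands, was at 194 CPM (186 to 202), Ccr2 at 115 CPM (110 to 121) and Cxcr4 at 106 CPM (101 to 112). The intervals of Ccr2 and Cxcr4 overlapped, and those of the other neighbours in this order did not. Cxcr4 was also at 25.8 CPM (17.9 to 36.1) in blood endothelium, its next class. The small classes lay above the macrophages for Ccr2, with 998 CPM (812 to 1214) in the 17 MHC class II-high barcodes and 374 CPM (257 to 525) in the 20 T or NK lymphocyte barcodes. Cxcr6 was at 510 CPM (372 to 682) in the T or NK lymphocyte barcodes, 13 of which held a UMI of it, and had 0 UMIs in macrophages.

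In the KO cauda the leukocyte classes differed in their receptors, and some receptors were shared between classes. Macrophages had Ccr1 at 222 CPM (215 to 229), which was also at 53.0 CPM in the 50 MHC class II-high barcodes and 23.8 CPM in B lymphocytes. B lymphocytes had Cxcr5, which leads B cells to Cxcl13, at 104 CPM (99.2 to 109), Ccr6 at 28.7 CPM, Ccr7 at 25.2 CPM and Ccr9, the gut-homing receptor, at 25.1 CPM. Of the kept Cxcr5 UMIs, 97.3% lay in B lymphocytes. T or NK lymphocytes had Ccr2 at 404 CPM (362 to 449), Cxcr6, a receptor of tissue-resident T cells, at 328 CPM (290 to 369), Cxcr3 at 118 CPM (95.9 to 144) and Ccr7 at 117 CPM (94.8 to 143). The 50 MHC class II-high barcodes had Ccr2 at 1585 CPM (1467 to 1711) and Cx3cr1 at 111 CPM. Xcr1, a receptor of cross-presenting dendritic cells, was at 38.6 CPM (22.0 to 62.6) there, with 11 of 16 UMIs in 1 barcode, and is named after its value was seen. Ccr2 was among the genes that led this class, which was not gated on it.

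The atypical receptors were low apart from Ackr3, the scavenger of Cxcl12. In the KO testis Ackr3 stood at 216 CPM (191 to 242) in blood endothelium and 23.4 CPM (13.1 to 38.6) in pericytes. In KO cauda macrophages it was at 18.1 CPM (16.2 to 20.2). Ackr2, which clears inflammatory CC ligands, was at 12.2 CPM (6.95 to 19.7) in testis endothelium and 6.63 CPM (5.50 to 7.93) in cauda B lymphocytes. Ackr4, which clears Ccl19, Ccl21 and Ccl25, was at 9.82 CPM (8.10 to 11.8) in testis fibroblasts. Ackr1, found on red cells and venules, had 4 UMIs in the KO testis, 3 in the KO cauda and 0 in the chimera.

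**Figure D2:**
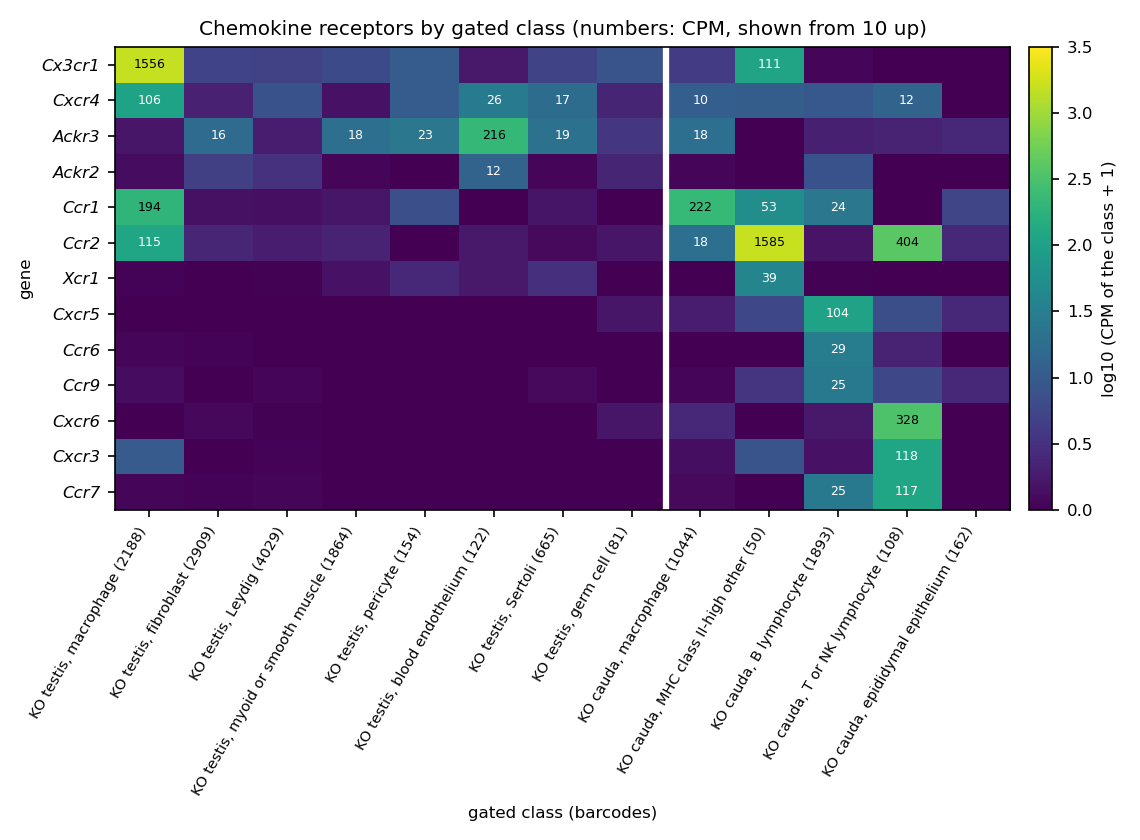
Levels of chemokine receptors that reach 10 CPM in a class, drawn as for the ligands (rows are genes, columns are gated classes with their barcodes, colour is log10 (CPM + 1), numbers are CPM). Cx3cr1 at 1556 CPM is the highest receptor in testis macrophages, above Ccr1 at 194 CPM. In the cauda the highest receptor is Ccr1 in macrophages, Cxcr5 in B lymphocytes and Ccr2 in MHC class II-high barcodes. In T or NK lymphocytes Ccr2 (404 CPM) is followed by Cxcr6 (328 CPM).

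Shares of barcodes with a UMI were compared after each barcode had been thinned to 1000 UMIs, leaving out shallower barcodes. Cx3cr1 was then found in 72.0% (70.0 to 73.9) of 2162 testis macrophages, and in 0.348% of 3741 Leydig barcodes, which serve as the background class. Ccl24 was found in 60.8% of testis macrophages (58.7 to 62.9), Ccl2 in 47.8% (45.7 to 49.96) and Ccl3 in 43.4% (41.3 to 45.5). Leydig barcodes had Ccl2 in 0.855% and Ccl24 in 0.214%. Without thinning, Ccl2 was found in 70.3% of testis macrophages and in 6.11% of Leydig barcodes, whose median depths were 5544 and 14972 UMIs. Thinning left out 26 testis macrophages and 288 Leydig barcodes.

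In the KO cauda, Ccl6 was found in 57.3% of 1029 thinned macrophages (54.2 to 60.4), Ccl24 in 56.7% (53.6 to 59.7), Ccl9 in 27.2% (24.5 to 30.04) and Cxcl13 in 12.7% (10.8 to 14.9). The background class of 1887 B lymphocytes had Ccl6 in 0.371%, and Cxcl13 in 0%, which by the exact interval allows up to 0.195%. Cxcr5 was found in 9.49% of those B lymphocytes (8.20 to 10.9) and in 0.292% of macrophages. Without thinning the shares were 97.2% of cauda macrophages for Ccl6, 37.3% for Cxcl13 and 55.6% of B lymphocytes for Cxcr5. Cxcl13 was thus detected in fewer macrophages than Ccl9 (90.7% unthinned), whose class level was close to it, and 435 of its 4885 macrophage UMIs were in 1 barcode.

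**Figure D3:**
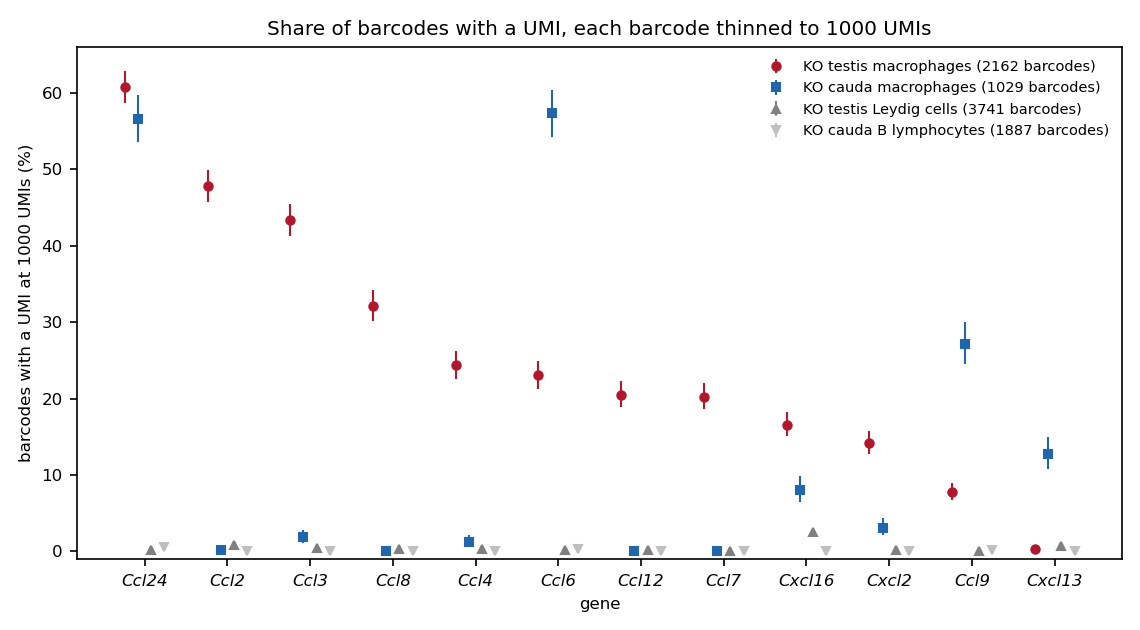
Percentage of barcodes with a UMI of each ligand after thinning to 1000 UMIs, with exact binomial 95% intervals, in macrophages of the KO testis and KO cauda and in a background class of each library (Leydig and B lymphocyte). Ccl24 lies at 60.8% in testis and 56.7% in cauda macrophages, where it is close to Ccl6 (57.3%), and Ccl2 at 47.8% stands high in the testis class.

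Testis macrophages often carried several ligands in 1 barcode. In 1922 testis macrophages thinned to 3000 UMIs, Ccl7 was found in 45.3% of the 1309 barcodes with Ccl2 and in 11.6% of those without it. Ccl3 was found in 79.3% of the 598 barcodes with Ccl4 and in 52.2% of the others. Ccl12 went the other way with Ccl6, which was found in 28.3% of the 650 barcodes with Ccl12 and in 48.4% of those without. Cxcl2 was found in 18.6% of the 1662 barcodes with Ccl24 and in 38.1% of the others. These shares are descriptions over barcodes of 1 library at 1 depth, and the pairs were picked after the values were seen.

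Ligands and receptors known to pair were set side by side by the class with the highest level among classes of at least 50 barcodes. Pairs with ligand and receptor at 50 CPM or more in their top classes are described here, first for the KO testis. Among those classes, Ccl2, Ccl7, Ccl8 and Ccl12 were highest in macrophages together with Ccr2, and Ccl3, Ccl4, Ccl6 and Ccl9 were highest there with Ccr1. In the small classes Ccr2, Ccl4 and Ccl9 were higher than in macrophages. Cxcl12 and Ackr3 shared blood endothelium, while Cxcl12 and Cxcr4 were highest in blood endothelium and macrophages, and Cx3cl1 and Cx3cr1 in myoid or smooth muscle and macrophages.

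In the KO cauda, ligand and receptor of the pairs described here had different top classes. Cxcl13 at 267 CPM in macrophages faced Cxcr5 at 104 CPM in B lymphocytes. Cxcl16 at 86.1 CPM in macrophages faced Cxcr6 at 328 CPM in T or NK lymphocytes. Ccl5 at 2500 CPM in T or NK lymphocytes faced Ccr1 at 222 CPM in macrophages. Ccl6 at 1901 CPM and Ccl9 at 798 CPM in the MHC class II-high barcodes faced the same receptor. These barcodes held only 3.71% of the kept Ccl6 UMIs and 5.44% of the kept Ccl9 UMIs. Macrophages, the top class of Ccr1, themselves had Ccl6 at 1090 CPM (19924 UMIs) and Ccl9 at 305 CPM (5567 UMIs). Some testis ligands had a receptor under 50 CPM in every class of at least 50 barcodes. Cxcr2, the receptor of Cxcl1 and Cxcl2, had 58 UMIs in the KO testis library (0.430 CPM). Cxcr6, the receptor of Cxcl16, had 88 (0.653 CPM), and the 20 T or NK lymphocyte barcodes held 45 of these. A pairing of levels is no measure of signalling.

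Macrophages are the class that both KO tissues hold in number, and their chemokines differed strongly between the libraries. A member was called different at 2-fold or more with at least 20 CPM in the higher class, and 21 members could be compared, while 41 were below that level. Of the 21, 14 were higher in KO testis macrophages, beside 16.1% of all features, and 4 were higher in KO cauda macrophages, beside 8.81%. The median log2 ratio (testis over cauda) of the 21 members was 2.67, and that of all features was 0.25. Without the barcodes shared between the cauda libraries the counts were the same, beside 16.2% and 8.82% of all features.

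Ccl7, Ccl12 and Ccl8, which act through Ccr2, showed the widest gaps of the 21 members. Ccl7 stood at 489 CPM in testis macrophages and 0.109 CPM (2 UMIs) in cauda macrophages, a ratio of 4470 (1237 to 36921). Ccl12 stood at 460 and 0.109 CPM (2 UMIs), a ratio of 4208 (1164 to 34751). Ccl8 stood at 923 and 0.602 CPM, a ratio of 1533 (856 to 3072), and Ccl2 at 1274 and 3.88 CPM, a ratio of 328 (260 to 420). All 4 ligands were thus near 0 in cauda macrophages at a depth of 18279081 UMIs. Their receptor Ccr2 was 6.37-fold (5.65 to 7.20) higher in testis macrophages, at 115 against 18.1 CPM, and 9.57-fold with a doubled minimum of marker UMIs.

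Cx3cr1 stood at 1556 CPM in testis and 3.01 CPM in cauda macrophages, 517-fold (397 to 687) higher, or 307-fold with each barcode given equal weight. The Ccr1 ligands Ccl4 (814 against 8.81 CPM) and Ccl3 (1093 against 20.7 CPM) were 92.5-fold (79.1 to 109) and 52.9-fold (47.7 to 58.7) higher. Cxcl10 was 30.05-fold (17.6 to 55.7) higher, but all 14 of its cauda UMIs were in 1 macrophage barcode and 114 of its 289 testis macrophage UMIs in another. Cxcr4 was higher by 10.4-fold (8.91 to 12.2), Cxcl2 8.39-fold (7.83 to 9.003) and Cxcl1 2.90-fold (2.54 to 3.32). Cxcl16 was just past the fold rule at 2.04-fold (1.91 to 2.18).

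In the other direction, Cxcl13 stood at 267 CPM in cauda and 1.51 CPM in testis macrophages, 177-fold (113 to 294) higher in the cauda. Cxcl14 was 6.87-fold (5.08 to 9.48) higher there, Ccl9 2.90-fold (2.73 to 3.08) and Ccl6 2.55-fold (2.48 to 2.63). Ccl24, Ccr1 and Cxcl12 stayed within the fold rule, with testis over cauda ratios of 1.17 (1.15 to 1.20), 0.874 (0.831 to 0.919) and 0.828 (0.703 to 0.974).

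Measures other than chemokines also moved between these macrophages. The early response genes Fos (4079 against 17.2 CPM), Jun (4141 against 46.2 CPM), Egr1 (1933 against 55.3 CPM), Atf3 (978 against 26.0 CPM), Dusp1 (1766 against 108 CPM), Zfp36 (1569 against 127 CPM), Junb (2681 against 293 CPM) and Ier2 (794 against 124 CPM) were all higher in testis than in cauda macrophages. This list of 8 was chosen after the data were seen. The cauda was aspirated and the testis prepared by another protocol, so handling, tissue and library cannot be told apart, and the part of the early response in the chemokine differences was not tested. Leydig markers summed to 1357 CPM in testis macrophages, against 28533 CPM in Leydig barcodes and 17.4 CPM in cauda macrophages, with all 6 markers detected in each. Epididymal epithelium markers summed to 1345 CPM in cauda macrophages. Markers of large peritoneal-type macrophages summed to 98.7 CPM in testis and 10786 CPM in cauda macrophages. The composition of macrophage subtypes therefore differed as well, and its part was not tested beyond a comparison of MHC class II-low testis with large peritoneal-type cauda macrophages. There 13 members were higher in the testis, beside 16.9% of all features, and 4 in the cauda, beside 8.83%. Cxcl16 fell to 1.63-fold and lost its call, Cxcl2 went to 5.21-fold and Ccr2 to 3.70-fold, and Cxcl13 to a testis over cauda ratio of 0.00323.

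**Figure D4:**
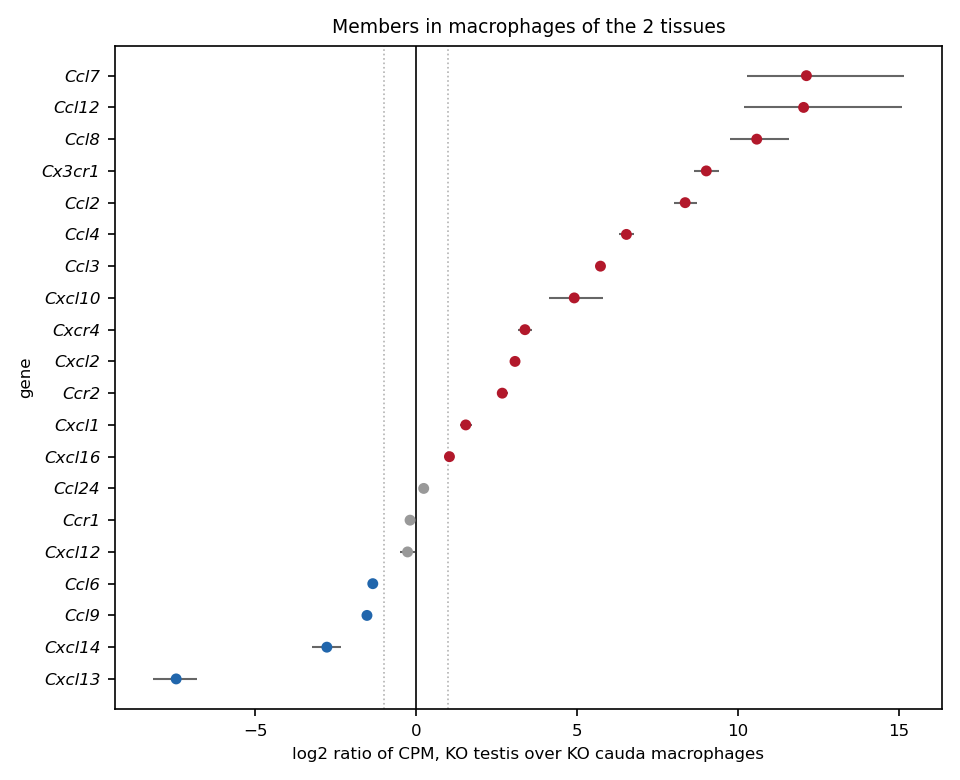
Log2 ratio of CPM, KO testis over KO cauda macrophages, for members that could be compared (points) with exact 95% counting intervals (lines). Red points are past the 2-fold rule toward the testis, blue points toward the cauda and grey points within it, with dotted lines at 2-fold; Ccl7 and Ccl12 rest on 2 cauda UMIs each.

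Within the KO testis, macrophages were split by MHC class II UMIs, which are no members, into 377 high and 1527 low barcodes. Of 20 members compared, 8 were higher in the MHC class II-high macrophages, beside 2.27% of all features, and 1 was higher in the low ones, beside 4.35%. The median log2 ratio (high over low) was 0.06 for the 20 members and -0.15 for all features. As the classes come from 1 library, tissue and handling are shared between them.

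Ccr2 stood at 546 CPM in MHC class II-high and 28.8 CPM in low macrophages, a ratio of 19.0 (16.5 to 21.8). Thinned to 1000 UMIs it was found in 33.6% (28.8 to 38.6) of the high macrophages. Cxcl2 stood at 1235 against 269 CPM (4.59-fold, 4.33 to 4.86), Ccl4 at 2108 against 539 CPM (3.91-fold, 3.75 to 4.08) and Ccl12 at 973 against 323 CPM (3.01-fold, 2.84 to 3.19). Cxcl16 was 2.48-fold (2.25 to 2.73) and Cxcl1 2.42-fold (2.02 to 2.88) higher in the high macrophages. Cxcl9, an interferon-induced ligand, and Ccl17 lie outside the naming rule and were also called. Cxcl9 stood at 46.7 against 1.96 CPM (23.8-fold, 14.2 to 42.2), with 36 of its 85 UMIs in 1 high macrophage. Ccl17 stood at 23.6 against 0.326 CPM (72.4-fold, 23.2 to 365), with 26 of its 43 UMIs in 1 high macrophage and 3 UMIs in all low ones. With each barcode given equal weight, Ccl17 was at 12.3-fold.

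Ccl24 was the member higher in MHC class II-low macrophages, at 1310 against 553 CPM, 2.37-fold (2.22 to 2.53). The remaining Ccr2 ligands did not follow Ccl12: Ccl2 stood at 928 against 1335 CPM, a ratio of 0.695 (0.660 to 0.732), Ccl8 at 573 against 910 CPM, and Ccl7 at 473 against 468 CPM (1.01, 0.939 to 1.09). Cx3cr1 stood at 1640 against 1516 CPM, a ratio of 1.08 (1.04 to 1.13), and Ccl3 at 1394 against 1032 CPM. Cxcl10 lay near the fold rule, at 13.7 against 27.2 CPM (114 of 250 UMIs of the low macrophages in 1 barcode), a ratio of 0.505 (0.321 to 0.763). The 8 early response genes together stood at 24719 CPM in the high and 16388 CPM in the low macrophages, and median depths were 4678 and 5866 UMIs. Their part in these ratios was not tested.

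Within the KO cauda, B lymphocytes were split by marker UMIs into 598 B-1-like cells, the type of body cavities, and 437 B-2-like cells, the follicular type. Only 5 members, all receptors, could be compared. Ccr9 was higher in B-1-like cells, beside 1.54% of all features, at 40.1 against 9.64 CPM (4.16-fold, 2.85 to 6.28), or 7.75-fold with a doubled minimum of marker UMIs. Ccr7, the lymph node homing receptor, and Ccr6, the receptor of Ccl20, were higher in B-2-like cells, beside 1.89% of all features. Ccr7 stood at 74.2 against 8.74 CPM (8.49-fold, 6.37 to 11.5) and Ccr6 at 46.0 against 20.4 CPM (2.25-fold, 1.77 to 2.87). Cxcr5 at 92.9 and 115 CPM and Ccr1 at 29.9 and 18.6 CPM stayed within the fold rule. Median depths were 10572 and 6349 UMIs, and the part of depth was not tested.

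**Figure D5:**
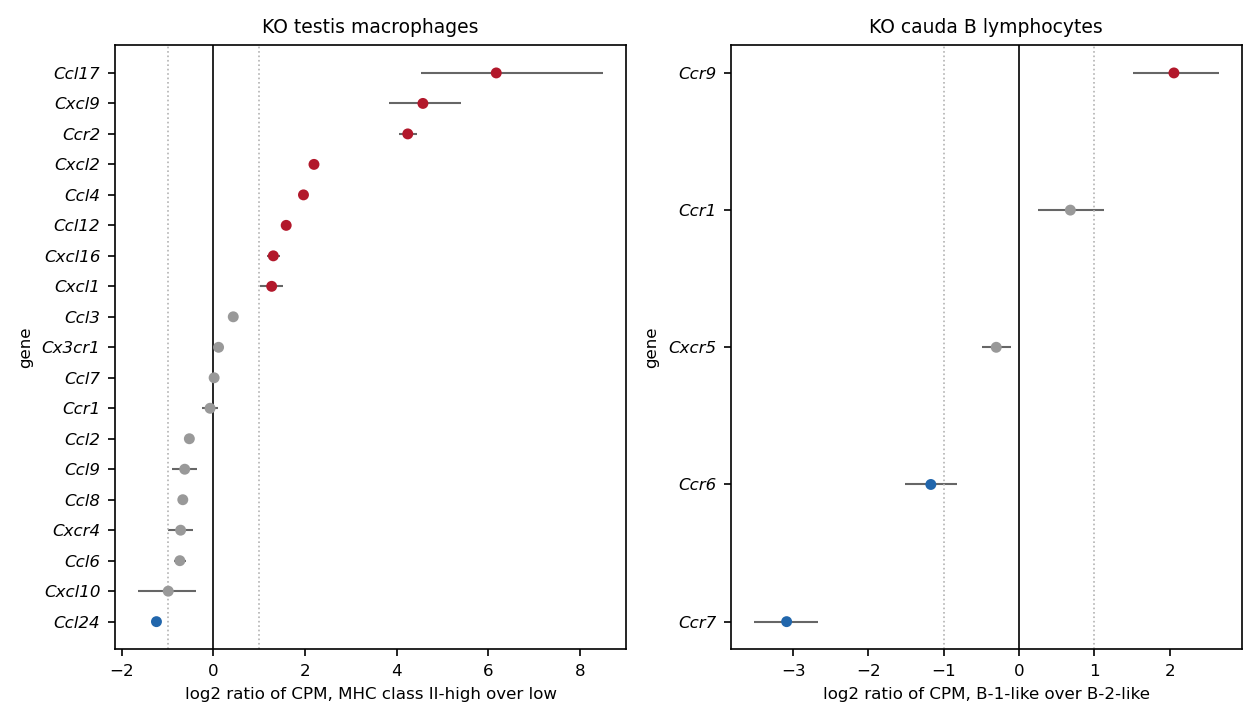
Log2 ratios of CPM with exact 95% counting intervals for members compared within a library: MHC class II-high over low macrophages of the KO testis (left) and B-1-like over B-2-like cells of the KO cauda (right). Red and blue points are past the 2-fold rule toward the first and the second class and grey points within it; Ccr2 at 19.0-fold and Ccr7 at 8.49-fold are among the widest ratios.

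Genes that carry or limit chemokine signals were read in the same comparisons, from a list of 46 with G proteins, receptor kinases, RGS proteins, processing enzymes and surface anchors. In testis against cauda macrophages, 37 could be compared, 10 were higher in the testis, beside 16.1% of all features, and 8 in the cauda, beside 8.81%. Rgs1, which shortens G protein signals, was 9.08-fold (8.29 to 9.95) higher in the testis at 271 CPM, and Rgs2 3.32-fold. Rgs14 was 2.68-fold higher in the cauda. Sdc4, a heparan sulfate proteoglycan that can hold chemokines, was 24.6-fold (19.4 to 31.4) higher in the testis and Ext1, which builds heparan sulfate, 2.81-fold. Sdc3, a relative of Sdc4, was 10.5-fold (9.91 to 11.2) higher in the cauda, at 921 against 87.4 CPM. The protease genes Mmp2 (20.1 against 0.164 CPM, 123-fold, 41.5 to 599, on 3 UMIs in the cauda) and Mmp14 (31.9-fold, 20.2 to 53.5) were higher in the testis.

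The receptor kinases Grk5 and Grk6 were 6.70-fold (5.57 to 8.13) and 4.12-fold (3.67 to 4.65) higher in cauda macrophages, while the G protein subunit Gng2 was 3.39-fold (3.09 to 3.73) higher in the testis. In the kinase and motility arm, Pik3cg (3.04-fold) and Elmo1 (2.38-fold) were higher in the testis, and Plcb2 (5.08-fold) and Ptk2b (4.798-fold) in the cauda. Between MHC class II-high and low macrophages 36 genes could be compared, and 3 were higher on each side, beside 2.27% of all features toward the high and 4.35% toward the low macrophages. Grk3 (4.68-fold, 3.46 to 6.32), Ptk2b (3.10-fold) and Rgs1 (2.97-fold) were higher in the high macrophages, and Rasgrp2 (5.98-fold), Rgs18 (2.75-fold) and Mmp2 (2.32-fold) in the low ones. Between B-1-like and B-2-like cells 26 could be compared, of which Ptk2b was higher in B-2-like cells (2.196-fold, 1.82 to 2.65), beside 1.89% of all features, and 0 were higher in B-1-like cells, beside 1.54%.

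The chimera cauda was compared with the KO cauda over all barcodes, counting members that reached 5 CPM in either. The chimera matrix held 214502 barcodes with a UMI, of which 222 had at least 500 UMIs. All 3937 KO cauda barcodes had at least 500 UMIs, so unlike sets of barcodes stand side by side here. Of 25 members compared, 3 were higher in the chimera, beside 11.5% of all features, and 4 in the KO cauda, beside 2.85%. Cx3cr1 was 5.01-fold (3.66 to 6.81) higher in the chimera, at 13.2 against 2.63 CPM. Of its 71 chimera UMIs, 24 were in macrophages, where 2 of 68 barcodes held any and 1 barcode held 16. Cxcl12 was 2.96-fold (2.49 to 3.52) higher, at 33.9 against 11.4 CPM, and Ccl8 10.6-fold (6.30 to 18.2), at 6.86 against 0.645 CPM. The KO cauda was higher for Cxcr6 (3.37-fold, 1.94 to 6.397), Ccl5 (2.24-fold, 1.90 to 2.65), Ccr9 (2.24-fold, 1.53 to 3.40) and Cxcl1 (2.14-fold, 1.38 to 3.505). Over barcodes of at least 500 UMIs, which held 1 of the 37 chimera Ccl8 UMIs, Ccl8 turned to a ratio of 0.527. There 6 members were higher in the chimera, beside 8.76% of all features, and 2 in the KO cauda, beside 4.09%.

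Chimera barcodes outside the KO cauda matrix were also taken alone, which left out 58.8% of the chimera UMIs. There 5 members were higher in the chimera, beside 19.6% of all features, and 5 in the KO cauda, beside 11.5%. Cx3cr1 was then at 6.76-fold, Cxcl12 at 2.59-fold and Ccl8 at 24.7-fold. Without barcodes of at least 500 UMIs in both cauda libraries, 5 members were higher in the chimera, beside 17.4% of all features, and 4 in the KO cauda, beside 7.68%. Since 63 of 68 chimera macrophages carried barcodes of the KO cauda matrix, levels in chimera macrophages are not independent of the KO cauda. They were 1051 CPM for Ccl6, 1173 CPM for Ccl24 and 415 CPM for Cxcl13, against 1090, 1010 and 267 CPM in KO cauda macrophages.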

How the data were processed

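Each of the 3 libraries was a Chromium Single Cell 3′ v3.1 library, 1 per group. The deposited matrices hold raw UMI counts per gene and barcode, which the authors made with Cell Ranger 4 for the chimera cauda and 6.1.2 for both KO libraries per the file headers. Cell Ranger 6, Seurat 4.2.1 and the build GRCm38.p6 are given in the submitters' processing notes. Software version and group therefore cannot be told apart between the cauda libraries. All columns of the tables mapped to a sample. A member that enters the counts is not reported here by name or value.

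Totals were 5395856 UMIs in the chimera cauda, 41862286 in the KO cauda and 134795047 in the KO testis. Barcodes were kept with at least 500 UMIs, at least 200 genes and at most 20% mitochondrially encoded UMIs. A class needed at least 3 markers, at least 5 marker UMIs and a set share of marker UMIs per 10000 UMIs, between 10 and 100. Barcodes that met gates of 2 unrelated classes (728, 40 and 7 in the KO testis, KO cauda and chimera) were left out as possible doublets, and no doublet caller was run. The gate thresholds, the class of MHC class II-high barcodes outside the gates and the early response list were set after the data were seen, and the members and lists were chosen with earlier results of these data known.

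Levels are CPM with exact Poisson 95% intervals, ratios have exact conditional binomial and shares exact Clopper-Pearson intervals, and all cover counting error only. With 1 library per group no p-value was computed. A difference was called at 2-fold with at least 20 CPM (classes) or 5 CPM (libraries) on the higher side. Gene positions are those of GENCODE M21. Members were named with at least 5 CPM in a library or 50 CPM in a class of at least 50 barcodes, as were all atypical receptors and, of the signalling list, the 2 largest called ratios per direction and arm. Alternatives were a 4-fold rule, no minimum level, a stricter gate, at most 10% mitochondrial UMIs, other scalings, equal weight per barcode, barcodes of 2 gates kept, and, added after the data were seen, sets without shared barcodes and a comparison of macrophage subtypes. Python 3.11.15 with numpy 2.4.6, scipy 1.17.1, pandas 2.3.3 and matplotlib 3.10.9 was used, and the calculations were tested on simulated data.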

Additional observations from a re-analysis of the deposited data

Results flagged for a closer look

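Ccl21a, the lymphatic ligand of Ccr7, gave a signal outside the kept barcodes of the KO testis. Of its 324 UMIs there, 321 were in 1 barcode that the limit on mitochondrially encoded UMIs had left out (10618 UMIs, 21.2% mitochondrial), and 3 were in all other barcodes. That barcode also held 9 UMIs of Mmrn1, 8 of Lyve1, 7 of Reln, 2 of Prox1 and 1 of Flt4, which are genes of lymphatic endothelium, and 0 of Pdpn, a further lymphatic marker. Of genes that blood endothelium also expresses, it held 9 UMIs of Egfl7, 4 of Pecam1, 4 of Kdr, 3 of Cdh5, 2 of Emcn and 0 of Flt1. Its count could be shared with Ccl21b and Ccl21c, which had 0 UMIs. It is a single barcode of a single library.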

How the results depend on the processing

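No paired analysis was possible because each group is 1 library and no test was made. The 3 members higher in the chimera cauda became 6 over barcodes of at least 500 UMIs, beside 8.76% of all features, and 8 with no minimum level. They became 5 without the barcodes shared by both cauda libraries, beside 17.4%, and 5 with chimera barcodes outside the KO cauda matrix, beside 19.6%. The 4 members higher in the KO cauda became 2 over barcodes of at least 500 UMIs, beside 4.09%, and 0 at 4-fold. Ccl8 turned from 10.6 to 0.527 (chimera over KO cauda) over barcodes of at least 500 UMIs, which held 1 of its 37 chimera UMIs. For macrophages, the 4 members higher in the KO cauda became 2 at 4-fold and 8 with no minimum level. The 8 members higher in MHC class II-high macrophages became 4 at 4-fold. The 1 member higher in the low macrophages became 2 with the stricter gate, 2 at 10% mitochondrial UMIs, 2 when scaled outside mitochondrial genes, 0 at 4-fold and 3 with no minimum level. The 1 member higher in B-1-like cells became 2 with the stricter gate, 2 with barcodes of 2 gates kept and 2 with no minimum level, and the 2 higher in B-2-like cells became 1 at 4-fold. The 4-fold rule and the lifted minimum change by construction how many members can be called, and for the other changes the cause was not tested. Where no share of all features stands beside a count, none is given, so that count is not read as a result about the members. For single members in the comparison of tissue macrophages, 107 recalculated ratios stayed close to the main value and 19 moved.

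Depth limits the chimera cauda most, where a count of 0 allows up to 0.556 CPM, taken as 3 UMIs of the library total. The limits were 0.0717 CPM (KO cauda) and 0.0223 CPM (KO testis). With 1 library per group the spread between animals is unknown, so no interval covers it. Classes of 20 or 17 barcodes rest on few cells.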
